A study of Mus musculus with 10 samples.

Results

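DNA methylation of 10 germline genes was measured in mouse lung, a tissue not known to use them. The genes were Dazl, Ddx4, Sycp1, Sycp3, Mael, Stk31, Tdrd1, Hormad1, Asz1 and Tex101, known germ cell genes. The rule that picked their windows used no measured value, but the genes were proposed with earlier results of these data known. Every deposited 1000-bp window that overlapped the RefSeq span of 1 of these genes in the mouse genome GRCm38 (mm10), extended by 5000 bp on each side, was taken, which gave 94 of 446336 windows. The level of a window is the percentage of its CpG calls that were methylated. The lung DNA was enriched with SureSelect probes for chosen regions and treated with bisulfite, which converts unmethylated cytosines, before sequencing (Methyl-seq). It came from 10 female BALB/c mice, 8 weeks old. The saline group (n = 3) received saline alone. The OVA group (n = 3) was sensitized by injection of 50 µg of ovalbumin (OVA) with alum and challenged in the nose with 25 µg. The DSE group (n = 4, named Herb in the labels) received the same OVA together with an ethanol extract of Descurainia sophia seeds (DSE), 200 mg/kg by mouth. The labels name no batch. No RNA was analysed, so the values say how these promoters were methylated and not whether the genes were silent. Lung is a mixture of cell types, and a change of methylation within cells and a change in the mixture of cells cannot be told apart.

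In mammals, a set of germline genes is marked in the early embryo and stays methylated in body cells. Most promoters rich in CpG are free of methylation in every tissue, and the promoters of this set form a well known exception. The non-canonical Polycomb complex PRC1.6, whose subunits Mga and Max bind the E-box CACGTG and whose subunit E2f6 binds TCCCGC, is known to target many of them before the DNA methyltransferase Dnmt3b methylates them. The 10 genes cover several steps of germ cell life. Dazl codes for an RNA-binding protein that germ cells need for translation of their messages, and Ddx4 (mouse vasa) for an RNA helicase. Mael, Tdrd1 and Asz1 take part in the piRNA pathway, in which small RNAs silence transposons in the male germline, and Stk31 is a Tudor domain protein of the testis. Sycp1, Sycp3 and Hormad1 are parts of the chromosome axis and synaptonemal complex that hold chromosomes together in meiosis. Tex101 is a surface protein of germ cells needed for sperm to pass the oviduct.

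Depth varied between the windows of these genes and was high at most start sites. Total calls were 306656737 to 410836272 per mouse over all windows, with a median of 409 calls per window and mouse, and 421759 windows had at least 20 calls in every mouse. The start-site windows of the germline genes held between 109 and 4641 calls per mouse. The shallowest value was that of Ddx4 in OVA replicate 2, at 82.6% with a 95% Wilson interval of 74.4% to 88.5%. Such intervals cover counting error only. By mean calls, the Ddx4 start-site window stood at the 47.2nd percentile of all windows and the others at the 79.6th or above. Away from the start sites depth went down to the 0.805th percentile, upstream of Sycp3. Mice of a group are separate animals. The windows were read against a C57BL/6J genome, and a base that differs in BALB/c could read as an unmethylated CpG, which was not tested.

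All of the genes had promoters of the CpG-rich kind. RefSeq holds a promoter of 300 bases (250 before and 50 after the start site) for all 10 genes, and all 10 were CpG-rich, defined as an observed to expected CpG ratio of at least 0.6 with at least 50% G and C. They held between 15 CpGs (Sycp3) and 38 CpGs (Ddx4). The start sites used, each the most frequent start among curated RefSeq transcripts, lie on chromosome 17 at 50293620 for Dazl, on chromosome 13 at 112652310 for Ddx4 and on chromosome 3 at 102936100 for Sycp1, all on the minus strand. Sycp3 starts on chromosome 10 at 88459587 and Hormad1 on chromosome 3 at 95559677, both on the plus strand. Mael starts on chromosome 1 at 166238744 on the minus strand. Stk31 on chromosome 6 at 49395539 and Tdrd1 on chromosome 19 at 56826209 are read from the plus strand. Asz1 on chromosome 6 at 18109061 and Tex101 on chromosome 7 at 24672050 are read from the minus strand. The 250 bases before the start site of Dazl (GRCm38 chr17:50293621-50293870, minus strand) are shown with their 20 CpGs in capitals, because the windows over them were at 91.4% and 95.9%.
Dazl: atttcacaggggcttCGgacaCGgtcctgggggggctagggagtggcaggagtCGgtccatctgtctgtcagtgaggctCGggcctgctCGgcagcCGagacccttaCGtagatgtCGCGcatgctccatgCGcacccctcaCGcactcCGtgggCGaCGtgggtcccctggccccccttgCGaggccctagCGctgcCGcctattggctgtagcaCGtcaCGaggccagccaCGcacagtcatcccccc

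Known binding letters of the PRC1.6 subunits were searched in the 300-base promoters. The E-box CACGTG, which reads the same on both strands, was found in 7 of the 10 genes, against 8.25% of the 16442 coding genes whose RefSeq promoter belongs to the start site used. Dazl, Asz1 and Tex101 had no such match. TCCCGC on either strand was found in 5 of the 10 (Ddx4, Sycp1, Sycp3, Mael and Hormad1), against 26.7% of all these promoters. E-boxes stood in 25.3% of the 75 CpG-rich genes whose start-site window was at 50% or more, and in 11.6% of the 7398 CpG-rich genes under 20%. The 75 include 9 of the germline genes described here, and without them the share was 18.2% of 66. For TCCCGC the order was the other way, with 33.3% (30.3% without the 9) and 45.6%. These matches describe letters and were not tested as binding sites. The 250 bases before the start site of 4 genes are shown because they hold the E-box at different places, with E-boxes and TCCCGC (or its reverse complement GCGGGA) in capitals. Sycp3 (chr10:88459337-88459586, plus strand) and Hormad1 (chr3:95559427-95559676, plus strand) each hold 2 E-boxes, Ddx4 (chr13:112652311-112652560, minus strand) holds 1, and the E-box of Tdrd1 (chr19:56825959-56826208, plus strand) begins 11 bases before the start site.
Sycp3: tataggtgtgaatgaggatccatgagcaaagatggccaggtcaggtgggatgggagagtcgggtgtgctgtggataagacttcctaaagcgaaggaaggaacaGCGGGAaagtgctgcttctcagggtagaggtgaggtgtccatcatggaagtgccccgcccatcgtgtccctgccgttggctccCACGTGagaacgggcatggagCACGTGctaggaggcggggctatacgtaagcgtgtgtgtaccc
Hormad1: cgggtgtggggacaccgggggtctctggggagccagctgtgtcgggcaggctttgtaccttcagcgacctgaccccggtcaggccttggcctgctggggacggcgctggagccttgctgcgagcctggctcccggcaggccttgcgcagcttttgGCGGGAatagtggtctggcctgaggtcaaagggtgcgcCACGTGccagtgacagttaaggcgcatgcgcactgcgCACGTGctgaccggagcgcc
Ddx4: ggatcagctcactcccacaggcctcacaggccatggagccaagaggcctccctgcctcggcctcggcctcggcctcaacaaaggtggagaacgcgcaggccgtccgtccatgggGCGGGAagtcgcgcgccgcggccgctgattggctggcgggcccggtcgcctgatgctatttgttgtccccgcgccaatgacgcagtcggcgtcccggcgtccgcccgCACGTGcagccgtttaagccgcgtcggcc
Tdrd1: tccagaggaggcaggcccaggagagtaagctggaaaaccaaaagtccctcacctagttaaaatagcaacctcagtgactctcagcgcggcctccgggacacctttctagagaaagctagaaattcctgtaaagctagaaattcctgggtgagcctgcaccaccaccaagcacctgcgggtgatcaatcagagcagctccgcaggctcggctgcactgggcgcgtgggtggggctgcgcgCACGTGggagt

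Start-site methylation was high in every mouse for every germline gene that could be measured. The start-site window was the deposited window whose midpoint lay nearest the start site, at most 500 bp away. It existed for 9 of the 10 genes; Asz1 had only windows inside the gene. Levels over all 10 mice were 92.9% ± 0.88 (SD, n = 10) for Sycp1, 91.4% ± 1.85 for Dazl and 91.4% ± 1.74 for Stk31. Hormad1 followed with 87.8% ± 1.98 and Ddx4 with 87.6% ± 4.92. Mael had 83.9% ± 3.46, Sycp3 82.6% ± 2.66 and Tex101 81.7% ± 0.71. Tdrd1 was lowest with 64.3% ± 6.92. In this order, Sycp1, Dazl and Stk31 did not differ from their neighbours by more than the larger SD between mice, and nor did the run from Hormad1 to Tex101. The steps from Stk31 down to Hormad1 and from Tex101 down to Tdrd1 were larger than that SD. No mouse was under 54.8% at any of the 9 genes, and without Tdrd1 none was under 76.9%.

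**Figure D1:**
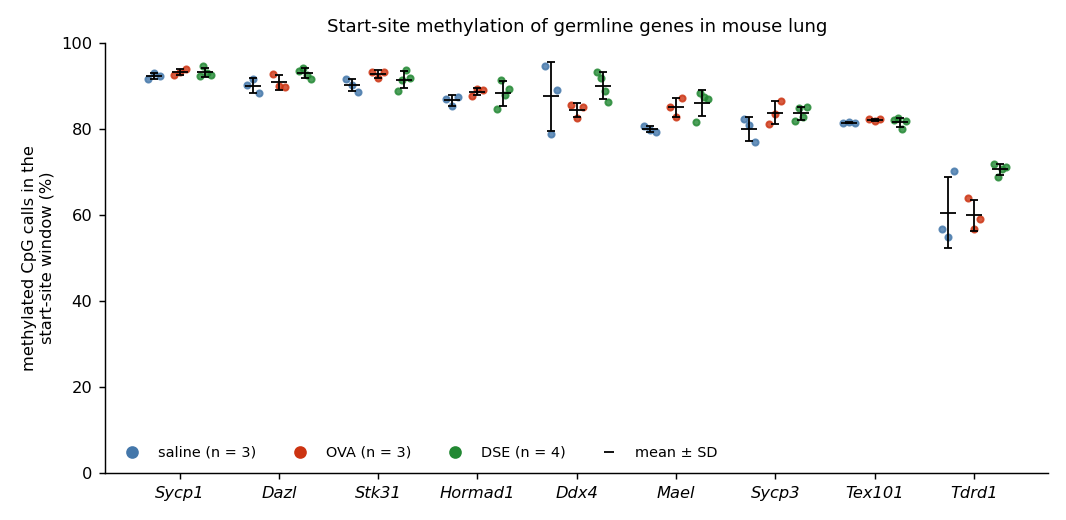
Percentage of methylated CpG calls in the start-site window (y axis, 0 to 100%) of the 9 germline genes that have one, with 1 point per mouse and the mean ± SD of each group as a black bar. All genes but Tdrd1 lie at 76.9% or above in every mouse, and the Tdrd1 points run from 54.8% to 71.9%.

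Such levels were rare among other genes. Of 15301 coding genes with a start-site window, 7.74% reached 50%, and of the 7785 among them with a CpG-rich promoter, 0.963% (75 genes) did. The median start-site level of the CpG-rich genes was 1.21%, and 95.03% of them were under 20%. Among all coding genes the 9 germline genes stood between the 94.6th percentile (Tdrd1) and the 99.7th (Sycp1), and among CpG-rich genes between the 99.3rd and the 99.9th. Together with other germline genes from lists of the piRNA pathway, of meiosis and of germ cell regulators, they made up 17 of the 75 CpG-rich genes at 50% or more. Another 9 CpG-rich genes of these lists were under 50%. The choice of these genes as examples of promoter methylation means that their place in this ranking describes them and is not independent evidence.

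Other genes of the same pathways were methylated less uniformly, and many had no promoter counted as CpG-rich. CpG-rich were 4 of 15 piRNA pathway genes, 12 of 22 meiosis genes and 1 of 6 germ cell regulators with a start-site window. Of these CpG-rich genes 2, 6 and 0 were at 50% or more. Among all coding genes, 20.8% of promoters that were not CpG-rich reached 50%. Of 15 further piRNA pathway genes with a start-site window, 11 were at 50% or more and 4 under 20%, with a median of 78.4%, against a median of 87.6% for the 9 genes here. The highest were Tdrd12 (92.9% ± 0.96), the helicase gene Mov10l1 (90.4% ± 0.80) and Tex19.1 (89.7% ± 0.75), while Tdrd5 (2.00% ± 0.49), Pld6 (3.70% ± 0.49) and Tdrkh (5.46% ± 1.12) were lowest (SD, n = 10 mice). Of 22 further meiosis genes, 13 were at 50% or more and 7 under 20%, with a median of 72.5%. Stra8, a gatekeeper of meiosis, stood at 91.6% ± 1.09, Slc25a31 at 90.9% ± 1.90 and the testis bromodomain gene Brdt at 90.2% ± 2.10. Prdm9, which sets recombination hotspots, was at 1.022% ± 0.35, Mei4 at 1.68% ± 0.37 and Msh5 at 2.62% ± 0.62. Of 6 other germ cell regulators, 3 were at 50% or more (Sohlh2 92.3% ± 1.15, Dmrtb1 91.5% ± 1.41 and Dnd1 79.1% ± 2.38) and 3 under 20% (Boll 2.03% ± 0.52, Lin28a 3.66% ± 1.00 and Zar1 13.1% ± 1.72).

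Relatives that all cells use had unmethylated start sites. All 8 of them were under 20%, with a median of 0.984%, among them Smc3 (0.863% ± 0.15) of the cohesin complex, the helicase gene Ddx5 (0.788% ± 0.15) and the Tudor domain gene Snd1 (0.907% ± 0.15). Tdrd3 (1.01% ± 0.65) and Rad21 (7.35% ± 1.39) were the highest of that list. The 12 genes of the silencing machinery were all under 20% (median 1.62%), with Dnmt1 (0.818% ± 0.26), Max (0.896% ± 0.24) and Trim28 (0.917% ± 0.29) lowest and Mga (10.2% ± 1.61), Dnmt3b (6.71% ± 2.98) and Setdb1 (6.08% ± 1.68) highest. All 10 autosomal housekeeping genes were under 20% as well (median 1.11%), with Polr2a (0.762% ± 0.18) and Ppia (0.863% ± 0.22) among the lowest and the highest being Psmb2 (1.83% ± 0.43), Ywhaz (2.43% ± 0.45) and Gapdh (7.34% ± 1.67). Of the lung epithelial markers, 5 had a start-site window. Nkx2-1 (2.71% ± 0.54) and Aqp5 (3.37% ± 1.41) were under 20%, and Cldn18 (76.8% ± 3.66), Sftpc (66.3% ± 5.82) and Sftpa1 (60.5% ± 5.50) at 50% or more. The promoters of Cldn18 and Sftpa1 were not CpG-rich, and Sftpc had no RefSeq promoter for the start site used.

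**Figure D2:**
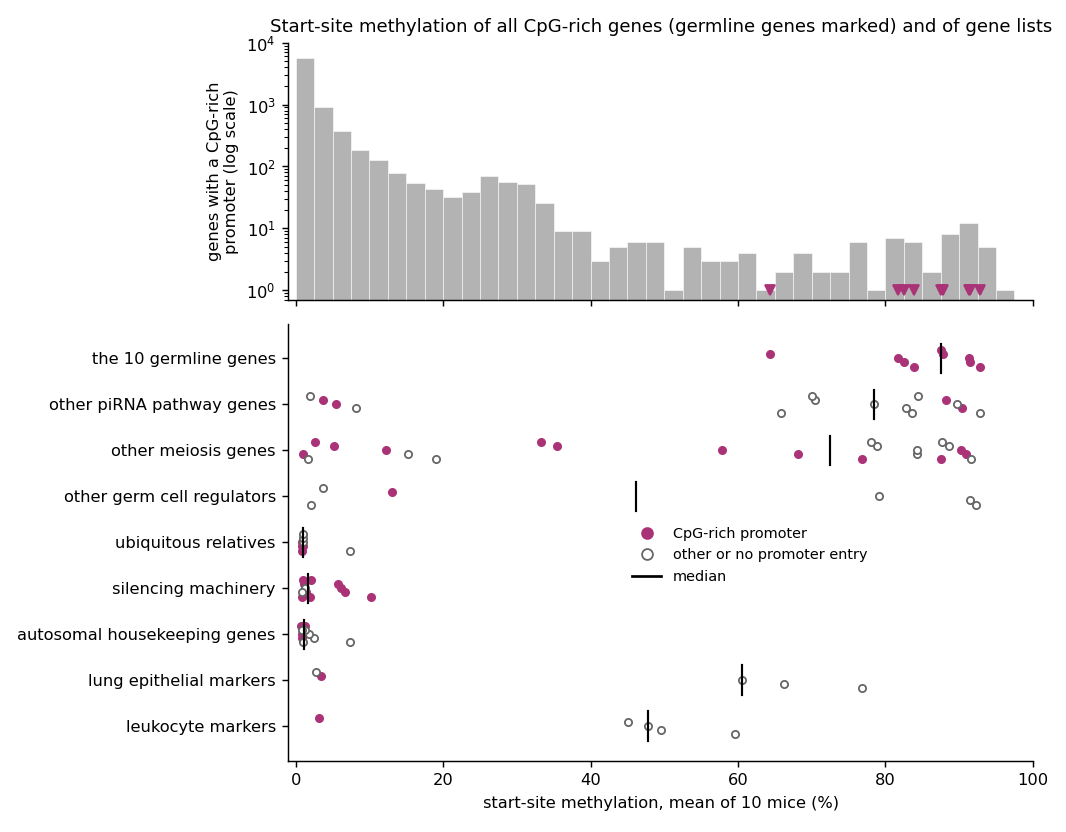
Upper panel: number of genes with a CpG-rich promoter (y axis, log scale) by start-site methylation in percent, mean of 10 mice (x axis), with triangles at the 9 germline genes. Lower panel: each gene of the 9 lists on the same x axis, filled where the promoter is CpG-rich, with the list median as a black line; the 9 germline genes shown have a median of 87.6%, the ubiquitous relatives 0.984%.

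Methylation was next compared between the start site and the gene body, since most genes show the opposite pattern. Gene body means the mean over windows inside the gene and over 1000 bp from every curated start, of which there were 1 (Sycp3) to 12 (Ddx4) per gene. Over 13586 coding genes with both, the median of start site minus gene body was -53.6 percentage points, and 4.01% had the start site above the gene body in all 10 mice. Of the 7 germline genes with both, 5 did (exact permutation test over mice by sign flips, two-sided p = 0.00195 for each, the smallest that 10 mice allow). Dazl had the widest difference, 70.0 ± 2.5 percentage points (SD, n = 10), with a gene body of 21.4% ± 3.21. Its 5 gene-body windows had midpoints at most 4619.5 bp past the start. In order from the start they were at 2.24%, 9.60%, 7.09%, 43.9% and 44.3%. Those at 43.9% and 44.3% held nearly the same calls. Ddx4 differed by 21.6 ± 5.88, Sycp1 by 21.1 ± 2.44, Mael by 16.6 ± 2.90 and Sycp3 by 14.9 ± 4.08, with gene bodies between 66.0% (Ddx4) and 71.7% (Sycp1). Overlapping windows that hold the same calls were each counted in these means. In Sycp1 this held for a window at 46.2%, on 55 to 114 calls per mouse, and for one at 87.3%. Its remaining window was at 91.8%. The Mael windows were at 54.1% and 80.4%, each counted with such a repeat. All calls of the 1 Sycp3 window lay in chr10:88460501-88461000. Stk31 was as methylated in its gene body (91.2% ± 1.58) as at its start, with a difference of 0.15 ± 1.93, positive in 5 of 10 mice (exact permutation p = 0.777). Tdrd1 went the other way, with the start site 10.4 ± 8.92 percentage points below a gene body of 74.8% ± 2.21, lower in 10 of 10 mice (exact permutation p = 0.00195). Hormad1 and Tex101 had no gene-body window, and Asz1, with no start-site window, had a gene body of 53.4% ± 4.61. Its 3 windows were at 9.56%, 56.5% and 94.2%, and the calls of the middle one are those of its neighbours together. The Asz1 gene-body mean therefore also depends on the share of calls from each part of that window. In the other lists the start site was above the gene body in all mice at 8 of 13 piRNA pathway genes, 7 of 17 meiosis genes and 2 of 5 germ cell regulators.

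**Figure D3:**
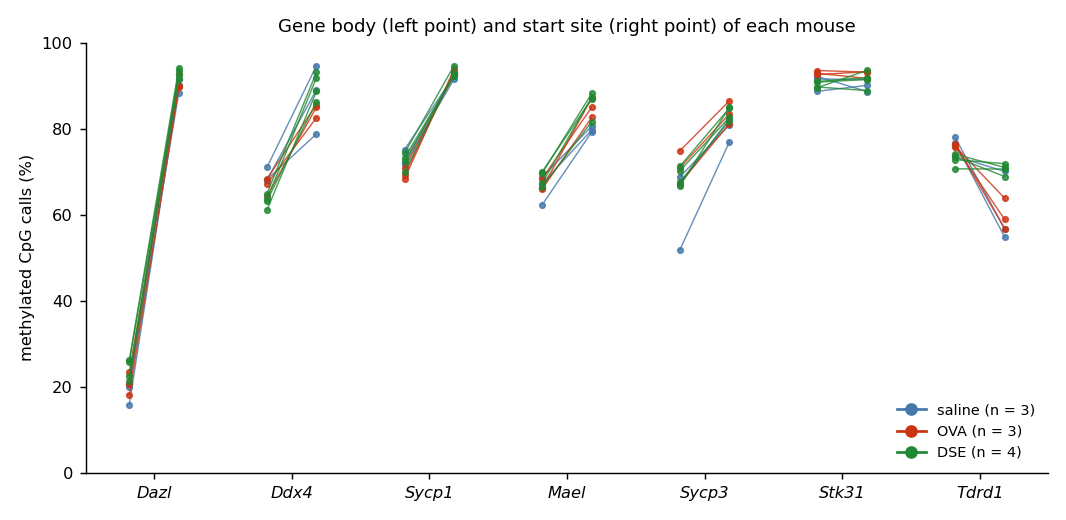
Methylation in percent (y axis) of the gene body (left point) and the start-site window (right point) of the 7 germline genes that have both, joined for each of the 10 mice and coloured by group. Lines rise in all mice for Dazl, Ddx4, Sycp1, Mael and Sycp3, run level for Stk31 and fall for Tdrd1.

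The steepest change lay inside Dazl. Windows with midpoints at -380.5 bp and 119.5 bp from its start site (negative is upstream) were at 95.9% and 91.4%. The window 619.5 bp after it was at 33.8% and the one 1119.5 bp after it, in intron 1, at 2.24%. In that last window the saline mice had 1.78%, 1.59% and 1.22%, the OVA mice 2.33%, 2.89% and 1.06%, and the DSE mice 1.92%, 2.86%, 3.97% and 2.84%, on 787 to 1352 calls per mouse. All mice thus showed the boundary, and their values on its low side differed by a few percentage points. The low window is no CpG desert: it holds 45 CpGs, against 79 in the start-site window. Its 300 bases with the most CpGs (chr17:50292685-50292984, minus strand, from 636 to 935 bp past the start site) hold 37 CpGs, in capitals below, and are shown to be read against the methylated promoter of the same gene.
Dazl intron 1: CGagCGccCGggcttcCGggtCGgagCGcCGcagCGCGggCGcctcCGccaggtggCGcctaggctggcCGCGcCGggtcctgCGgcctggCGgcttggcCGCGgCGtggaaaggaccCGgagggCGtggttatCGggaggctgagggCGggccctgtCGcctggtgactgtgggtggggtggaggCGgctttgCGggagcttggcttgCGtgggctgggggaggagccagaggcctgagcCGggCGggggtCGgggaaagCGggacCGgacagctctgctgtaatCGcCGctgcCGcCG
Low methylation went on to 2119.5 bp after the start (7.09%), and the windows from 4119.5 bp on were at 43.9% or more. Averaged over the 4 windows that overlap the 1000 bp on either side of the start site, that at 1119.5 bp included, Dazl came to 55.8% in place of 91.4%. No window of the other 8 genes within 1000 bp of the start site was under 64.3%. Sycp1 stayed between 91.8% and 93.0% over the 4 windows from -400.5 bp to 1099.5 bp, and Sycp3 fell step by step from 92.6% at -586.5 bp to 67.7% at 1413.5 bp. For comparison, the median window of all CpG-rich genes was at 1.65% within 500 bp before the start and 1.19% within 500 bp after it, and at 57.5% between 1500 and 2000 bp before it.

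**Figure D4:**
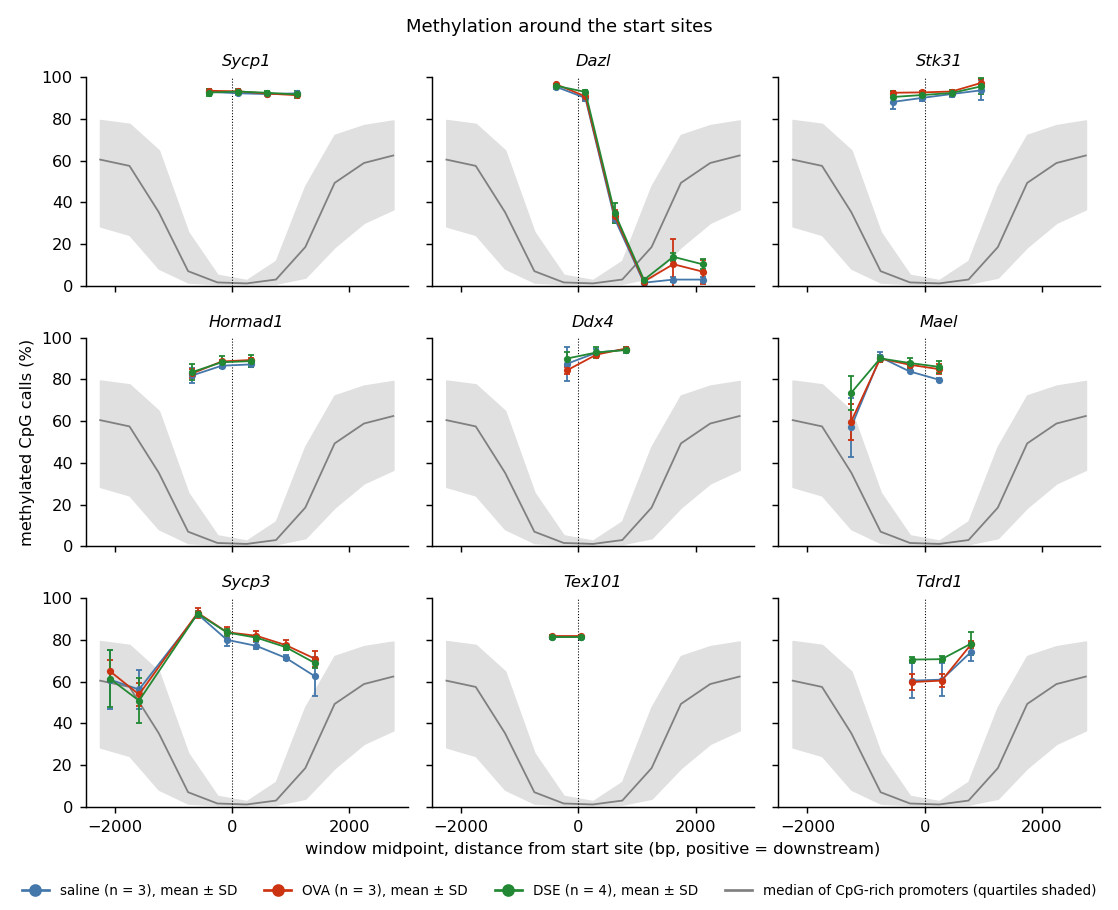
Methylation in percent (y axis) against the distance of the window midpoint from the start site in bp (x axis) for 9 germline genes, as group mean ± SD, with the median and quartiles of all CpG-rich promoters in grey. The germline genes are high where the grey line dips, and Dazl falls from 91.4% to 2.24% within 1000 bp.

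Of the 94 windows, 88 had at least 20 calls in every mouse. By location, 27 of the 28 whose midpoint lay within 1000 bp of a start site were at 50% or more and the other was the Dazl window at 33.8%. Of 40 gene-body windows, 29 were at 50% or more and 4 under 20%, 3 of these in Dazl and 1 in Asz1. Low windows were common in the flanks, with 13 of 20 under 20%. Of those 13, 10 had their midpoint within 1000 bp of the start of another gene. These were Ccdc186 upstream of Tdrd1 (down to 1.01%), Vwa2 downstream of it (down to 1.99%) and Golph3l downstream of Hormad1 (down to 1.202%). At Tdrd1, the window at -208.5 bp was at 64.3%, while that over the Ccdc186 start, at -4208.5 bp from the Tdrd1 start, was at 1.01%.

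Groups were compared at the start sites first. The values of the groups did not overlap at 4 of 9 genes in OVA vs. saline, where 19.3% of all start-site windows did not, at 2 of 9 in DSE vs. OVA against 12%, and at 1 of 9 in DSE vs. saline against 19.5%. OVA vs. saline and DSE vs. saline share the saline mice. Mael had 79.9% ± 0.69 in saline, 84.9% ± 2.27 in OVA and 86.0% ± 2.96 in DSE mice, and did not pass the test across all windows against saline (limma adjusted p = 0.193 for OVA and 0.0928 for DSE). The other genes without overlap in OVA vs. saline were Stk31, 2.64 percentage points higher in OVA, Hormad1, 2.02 higher, and Tex101, 0.72 higher. An exact permutation test cannot go below p = 0.1 for 3 mice against 3 or below 0.0571 for 3 against 4, and those were the values in each case without overlap. None of the 27 differences passed limma, run on a log2 ratio of calls known as the M-value, at an adjusted p under 0.05. Leukocyte markers are given beside these values. Over the 5 of 8 with a start-site window, the median per mouse was 51.6% to 54.2% in saline, 40.9% to 50% in OVA and 38.9% to 44.6% in DSE mice. In OVA vs. saline 2 of the 5 were lower without overlap and none was higher. These were Ptprc (CD45), with means of 54.9% in saline, 42.9% in OVA and 39.3% in DSE mice, and Laptm5, with 58.0%, 45.7% and 41.5%. The others did not share this order: Cd79a had 58.0%, 58.8% and 61.3%, Siglecf 51.1%, 53.0% and 45.7%, and Coro1a 3.31%, 2.94% and 3.13%. Over all mice 1 of the 5 (Cd79a) was at 50% or more and 1 (Coro1a) under 20%. The part of the cell mixture in the differences at germline genes was not tested.

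Tdrd1 showed the widest start-site difference between groups. Its saline mice had 56.7%, 54.8% and 70.1%, its OVA mice 63.8%, 56.8% and 58.9%, and its DSE mice 71.9%, 68.9%, 70.6% and 71.0%. DSE mice were higher than every OVA mouse, while saline replicate 3 lay within the DSE range. The pooled calls were 10.7 percentage points higher in DSE than in OVA mice (adjusted p = 3.12e-56, logistic likelihood ratio test, which takes each call as independent), the exact permutation p was 0.0571 and the limma adjusted p 0.165. The calls of the overlapping window 291.5 bp after the start (chr19:56826001-56827000), which was also called, were nearly the same ones. Its call was lost without DSE replicate 1 (9.70), OVA replicate 2 (8.88) or OVA replicate 3 (9.81). All calls of the start-site window (chr19:56825501-56826500) lay in the 500 bp that both windows share, chr19:56826001-56826500. That part spans the start site at 56826209, from the end of the promoter over exon 1 into the start of intron 1. Without OVA replicate 2 the difference fell to 9.17 percentage points and the window was no longer called at 10. Start site minus gene body of Tdrd1 was -15.6 ± 10.5 in saline, -16.3 ± 3.86 in OVA and -2.15 ± 2.03 percentage points in DSE mice.

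Across all 93 of these windows that could be tested in each comparison, few passed the likelihood ratio test (Benjamini-Hochberg adjusted p under 0.01 over all windows, and at least 10 percentage points). In OVA vs. saline 1 was higher and 3 were lower, where 4.75% and 2.56% of all windows were. In DSE vs. OVA 3 were higher and 1 was lower, against 0.898% and 0.725%. In DSE vs. saline 2 were higher and 6 were lower, against 4.95% and 3.07%. Windows overlap, and some hold the same calls, so these counts are not of independent regions. With tests that use the spread between mice the calls were lost at an adjusted p under 0.01. An F test with a scale factor called 0 of the 93 windows and 0% of all windows in each comparison, although 14, 13 and 18 of the 93 had an unadjusted p under 0.05, against 14.99%, 7.17% and 20.4% of all windows. By limma, 0 windows of the germline genes were called at an adjusted p under 0.01, where 0%, 0.00188% and 0.000467% of all windows were, and 21 of 89, 17 of 88 and 25 of 90 had an unadjusted p under 0.05, against 19.6%, 9.71% and 24.7%. At an adjusted p under 0.05 and 10 percentage points, a threshold added after seeing the data, limma called 0, 0 and 4 of them, against 0%, 0.0733% and 3.81% of all windows. Without the 10 points, 0 of 89, 1 of 88 and 9 of 90 passed, against 0 of 424174, 541 of 424436 and 22532 of 428660 of all windows. The 1 in DSE vs. OVA, chr3:95588001-95589000, lies downstream of Hormad1 with its midpoint 433.5 bp from the start of Golph3l. It had 5.57% ± 0.69 in saline, 4.08% ± 0.68 in OVA and 10.6% ± 0.52 in DSE mice (limma adjusted p = 0.0375 against OVA and 0.0233 against saline).

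The windows called lower lay mainly in the body of Ddx4. At chr13:112624001-112625000, over exon 10, saline mice had 65.6%, 65.7% and 59.3%, OVA mice 57.0%, 44.9% and 43.5%, and DSE mice 47.9%, 50.6%, 40.9% and 38.7%. Every saline mouse was above every mouse of the other groups. Depth was 124 to 314 calls in saline and OVA mice and 432 to 501 in DSE mice. Its part in the differences was not tested. The pooled difference was -14.0 percentage points in OVA vs. saline (adjusted p = 2.12e-06, likelihood ratio test; limma adjusted p = 0.142) and -19.0 in DSE vs. saline (limma adjusted p = 0.0333). The next window, chr13:112624501-112625500, holds exactly the same calls and is no further evidence. In intron 3, at chr13:112643001-112644000, levels were 82.4% ± 7.36 in saline, 69.1% ± 6.95 in OVA and 63.7% ± 4.69 in DSE mice, and the window was called lower against saline in both comparisons; without saline replicate 1 the difference of OVA vs. saline was -8.75 percentage points. In intron 5, chr13:112634501-112635500 was called lower in DSE vs. saline, with 48.7% ± 2.94 in saline and 38.1% ± 7.61 in DSE mice. The difference of -10.6 percentage points was -6.69 without DSE replicate 4 and -9.27 without saline replicate 3, and the call was lost in both cases. Not every body window was lower. At chr13:112621001-112622000 every OVA mouse was above every saline mouse, with 40.8% ± 3.24 in saline, 54.5% ± 5.73 in OVA and 49.5% ± 7.32 in DSE mice. That window was not called in OVA vs. saline (13.6 percentage points, likelihood ratio test adjusted p = 0.0129). The gene body of Ddx4 as a whole had 69.1% ± 1.66 in saline, 66.6% ± 2.05 in OVA and 63.2% ± 1.58 in DSE mice, while its start site had 87.5% ± 8.05, 84.4% ± 1.62 and 90.0% ± 3.09.

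The low stretch of Dazl was called higher, in intron 1 at chr17:50291501-50292500. Saline mice had 1.92%, 2.78% and 4.35% there, OVA mice 3.12%, 24.2% and 3.85%, and DSE mice 12.0%, 16.5%, 14.5% and 12.7%. All 4 DSE mice were above all 3 saline mice, and among OVA mice replicate 2 alone was high. In OVA vs. saline the difference of 11.2 percentage points (likelihood ratio test adjusted p = 0.00403) fell to 0.463 without OVA replicate 2, and the call was also lost without saline replicate 1 (10.5) or saline replicate 2 (11.1). In DSE vs. saline it was 10.6 (limma adjusted p = 0.0227), and 9.89 without saline replicate 1, where the call was lost. Depth differed with the group here, with 26 to 62 calls in the saline and OVA mice and 133 to 334 in the DSE mice. In the overlapping window chr17:50291001-50292000, the saline mice and OVA replicates 1 and 3 had the same calls and levels. OVA replicate 2 had 37 calls there in place of 62, at 13.5%. The DSE mice also had fewer, at 8.51%, 11.4%, 13.2% and 8.27%, all above the saline mice. Differences from saline were 4.38 (OVA) and 7.29 (DSE) percentage points, and that window was not called. The part of depth and of the CpGs covered in the differences was not tested.

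In Tdrd1, the window chr19:56847001-56848000 in intron 11 was lower in DSE mice. Saline mice had 85.6%, 85.9% and 78.9%, OVA mice 77.2%, 74.0% and 78.9%, and DSE mice 70.2%, 70.1%, 69.1% and 68.5%. DSE mice were below every other mouse, by -12.9 percentage points against saline in pooled calls (limma adjusted p = 0.0268). This window and the next were among the deepest of the series, at the 99.6th and 99.96th percentile of mean calls, with 20454 mean calls per mouse over 21 CpGs in the next one, and none of its bases is masked as a repeat in the reference. In the first, depth was 2776 to 7201 calls in saline and OVA mice and 7956 to 12110 in DSE mice. Its part in the difference was not tested. Downstream of Tdrd1, chr19:56873001-56874000 was called higher in DSE vs. OVA, with 39.1% ± 1.36 in saline, 30.5% ± 2.40 in OVA and 42.5% ± 3.02 in DSE mice. Its midpoint lies 915.5 bp from the start of Vwa2, and it is not part of Tdrd1. Upstream of Mael, chr1:166239501-166240500 was called higher in DSE vs. saline on 46 to 76 calls per mouse, with 57.0% ± 14.0 and 73.4% ± 8.12, and without saline replicate 2 the difference fell from 15.6 to 8.48 percentage points. The call was also lost without DSE replicate 3 (13.9) or DSE replicate 4 (12.9).

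The widest difference among called windows, at Asz1, came apart when its window was divided. The window chr6:18087001-18088000 in intron 4 had 69.4%, 56.4% and 62.04% in saline mice, 74.2%, 61.4% and 67.6% in OVA mice and 47.9%, 42.3%, 32.8% and 50.6% in DSE mice. DSE mice were all below the others, by -24.3 percentage points against OVA and -19.4 against saline in pooled calls (likelihood ratio test adjusted p = 8.28e-22 and 8.72e-15; limma adjusted p = 0.134 and 0.064). The calls of its neighbours add up to those of this window in every mouse, so the calls of its first and last 500 bp are known. The part farther from the Asz1 start was at 13.3% ± 5.32 in saline, 5.27% ± 2.5 in OVA and 9.95% ± 1.39 in DSE mice. The part nearer to it was at 95.6% ± 2.38, 93.9% ± 0.82 and 93.3% ± 2.08. The share of calls from the low part was 31.1% to 45.4% in saline mice, 21.5% to 37.0% in OVA mice and 51.2% to 71.5% in DSE mice. With equal weight for both parts the window came to 54.5% ± 3.44 in saline, 49.6% ± 1.23 in OVA and 51.6% ± 0.67 in DSE mice. The mean of the parts was thus 2.03 percentage points higher in DSE than in OVA mice, where that of the pooled calls of the whole window was -24.3.

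**Figure D5:**
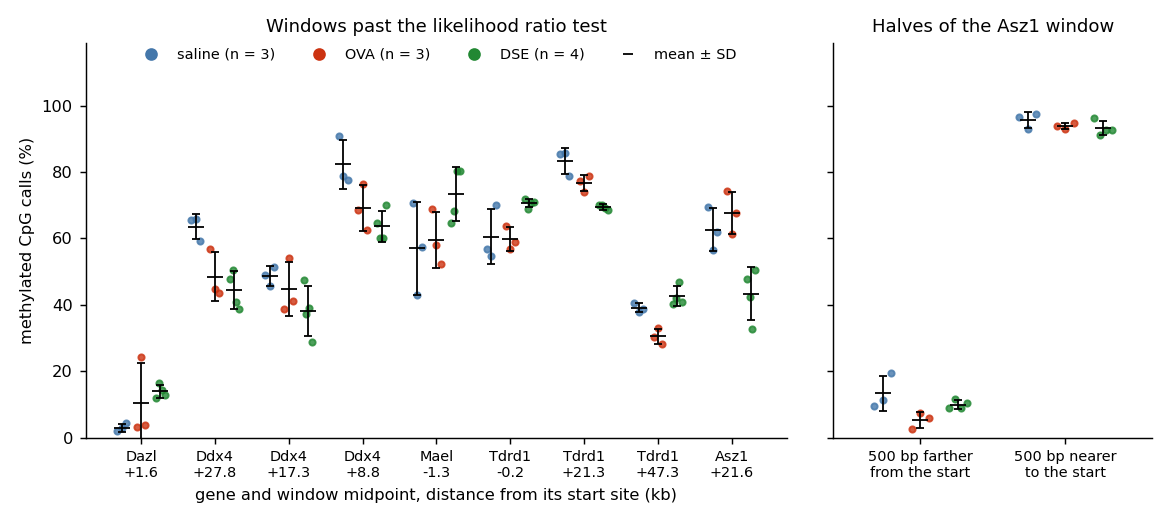
Left: methylation in percent (y axis) of the windows of germline genes past the likelihood ratio test in at least 1 comparison. Each has 1 point per mouse and the mean ± SD of each group. Windows are named by gene and by distance of the window midpoint from its start site in kb (x axis). Those that repeat the same calls are left out. The called Tdrd1 window at 291.5 bp, which overlaps the start-site window, is also left out. Right: the 500-bp parts of the Asz1 window, where all groups lie near 5% to 13% and near 93% to 96%.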

How the data were processed

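Libraries were made from lung DNA by SureSelect Methyl-seq capture and bisulfite conversion. The authors trimmed and aligned reads to mm10 and deposited, for each 1000-bp window with a step of 500 bp, raw counts of methylated and unmethylated CpG calls in every mouse. The submitters' processing notes name cutadapt 1.10, Bismark 0.19.0 and methylKit 1.0.0, and the study's methods name some other versions. Capture and mapping limit the values to covered CpGs.

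Here levels were computed as 100 times methylated calls over all calls, for windows with at least 20 calls in every mouse, which 88 of the 94 windows had. Each window was tested in a logistic model by a likelihood ratio test without overdispersion (at least 2 mice per group with 20 calls), adjusted by Benjamini-Hochberg over all windows, and called at an adjusted p under 0.01 and 10 percentage points. An F test with a scale factor and limma on M-values (pseudocount 1) served as alternatives, with other minimums, scalings, start sites, a replicate block and each mouse left out. Start site against gene body and group means were tested by exact permutation over mice, two-sided. Scripts were tested on simulated data. Tools were Python 3.11.15, numpy 2.4.6, pandas 2.3.3, scipy 1.17.1, matplotlib 3.10.9, R 4.3.3 and limma 3.58.1. Sequences and annotation came from RefSeq for GRCm38.

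The genes and lists were chosen with earlier results of these data known. All 10 germline genes and all called windows are named, and of every other list up to 3 genes with the highest and 3 with the lowest start-site level. Some genes of these lists are not reported here by name. Sharing of replicate numbers between groups was checked, as was depth. Mice of a group differed by more than sampling noise, so none was counted once with another. The group named Herb in the labels is called DSE, after the study's methods.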

Additional observations from a re-analysis of the deposited data

How the results depend on the processing

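The number of windows of germline genes past the thresholds depended on the test. By the likelihood ratio test it was 4 for OVA vs. saline, 4 for DSE vs. OVA and 8 for DSE vs. saline. The F test and limma at an adjusted p under 0.01 gave 0 in each of the 3 comparisons, and limma at an adjusted p under 0.05, chosen after seeing the data, gave 0, 0 and 4. Over windows that do not overlap, 46 in place of 93, the counts were 2, 3 and 4. Both tests that lost the calls use the spread between mice. With single mice left out the counts were 3 to 6, 3 to 6 and 6 to 12 windows. The count of start-site comparisons without overlap, 7 of 27, ranged from 7 to 10 with single mice left out and was 6 with the mean over windows that overlap the 1000 bp on either side of the start site, and the count of genes with the start site above the gene body in all mice stayed at 5 with single mice left out.

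Mice that share a replicate number did not deviate together (correlations from -0.0273 to 0.0785 over 9 pairs), so the numbers do not pair the mice. With the replicate block the windows called were 3, 4 and 6.

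The share of CpG-rich genes at 50% or more, 0.963%, was 0.467% with a stricter definition of CpG-rich, 0.527% at 80% or more and 0.897% on autosomes alone. The Stk31 difference between start site and gene body changed sign without DSE replicate 3 (-0.275), with a range of -0.275 to 0.555 percentage points over single mice left out, and was 1.19 with that mean over windows. By the same mean, the level of Dazl was 55.8% and that of Sycp3 79.7%. The difference of Mael in OVA vs. saline was 2.56 percentage points in place of 5.08, that of Sycp1 0.201 in place of 0.932, and that of Ddx4 in DSE vs. OVA 1.98 in place of 5.61. With all windows that hold the start site, Ddx4 gave 1.89 and the level of Dazl was 93.3%. Of the other values, 374 differences between groups and 123 start-site levels moved by less than the spread between mice. The other 104 differences from the gene body kept their sign, but some moved by more than that spread. That of Dazl, 70.0 ± 2.5 percentage points, was 34.4 with the mean over windows that gave its level of 55.8%. That of Sycp1, 21.1 ± 2.44, was 4.17 with pooled calls over gene-body windows. Windows with few calls, such as Dazl intron 1 (26 to 62 calls in saline and OVA mice), limit the precision.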
